A study of Mus musculus with 7 samples.

Results

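The genes described here are the 7 inhibitors of cyclin-dependent kinases (CDKs) and the 3 D-type cyclins of the mouse: Cdkn1a, Cdkn1b, Cdkn1c, Cdkn2a, Cdkn2b, Cdkn2c, Cdkn2d, Ccnd1, Ccnd2 and Ccnd3. They were chosen by name, as 10 of the 28786 genes of the deposited count table, and all 10 were found in it. RNA was sequenced from haematopoietic stem cells (HSCs), 1500 sorted cells per library, taken from the bone marrow of mice aged 6 to 8 weeks. The control group is labelled only as control, and the design text calls these mice normal. The other group is C57BL/6J mice labelled as having MC38 colon cancer, MC38 being a colon carcinoma line derived from that strain. The labels give no genetic change in either group, and neither the route and duration of tumour growth nor the surface markers of the sort are given in the sources used here. The study asks how a tumour turns HSCs towards the myeloid lineage.

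The comparison used control replicates 1 and 2 and MC38 replicates 1 to 4, with 12131546 to 17657037 counts per library. Control column 3 was left out because it is not an independent library. Its value divided by the sum of the other controls had a median of 0.353 over 9692 genes, and lay between 0.350 and 0.360 for each of the 8 members with enough counts. The labels do not say whether each library is a separate mouse, so the spread behind every p-value is that of these libraries and could be technical. Stem cell markers were present in both groups. Kit, the stem cell factor receptor, was at 352 and 328 CPM, and Hlf, a stem cell transcription factor, was at 188 and 183 CPM in control and MC38 libraries. Not all such markers overlapped between groups. Ly6a, at 107 and 168 CPM, was higher in all 4 MC38 libraries than in both controls, and Gata2, at 321 and 228 CPM, was lower. CPM is the count scaled to library size with TMM factors. Bulk RNA cannot tell fewer cells of a type from less RNA per cell.

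A cell leaves quiescence when D cyclins, paired with CDK4 or CDK6, begin to phosphorylate the retinoblastoma protein, which releases E2F factors to switch on genes of DNA replication. The Ink4 proteins, encoded by the Cdkn2 genes, bind CDK4 and CDK6 and keep D cyclins away. The Cip/Kip proteins, encoded by the Cdkn1 genes, bind cyclin and CDK together and block CDK2 complexes. In HSCs p57, the product of Cdkn1c, is known for holding cells in quiescence, p21 and p27 for limiting their entry into cycle, and silencing of the Cdkn2a locus for allowing self-renewal.

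None of the 10 genes passed the test between MC38 and control (edgeR, adjusted p under 0.05), while 1.61% of the 14226 genes tested did. DESeq2 called 2 of them, Cdkn1a and Cdkn2d, and 7.18% of all genes. The 2 members with the smallest p-values differed in opposite directions, Cdkn1a lower and Cdkn2d higher in MC38, and every MC38 library lay outside the range of the controls for both. Cdkn2b was below the filter on low counts. Cdkn2a passed that filter only through its counts in MC38 libraries, so it does not enter the counts that follow. The other 8 members had at least 215 counts in every library. Of these, 2 had an unadjusted p under 0.05, and 17.5% of all genes tested (2488 genes) did so. In 3 of the 8 the groups did not overlap, against 29.0% of all genes tested. In 2 of these all 4 MC38 libraries were below both controls (15.0% of all genes), and in 1 they were above (14.0% of all genes). The median log2 fold change of the 8 was 0.09, and that of all genes tested was 0.01. With 8 genes, these counts do not set the members apart from the background.

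**Figure D1:**
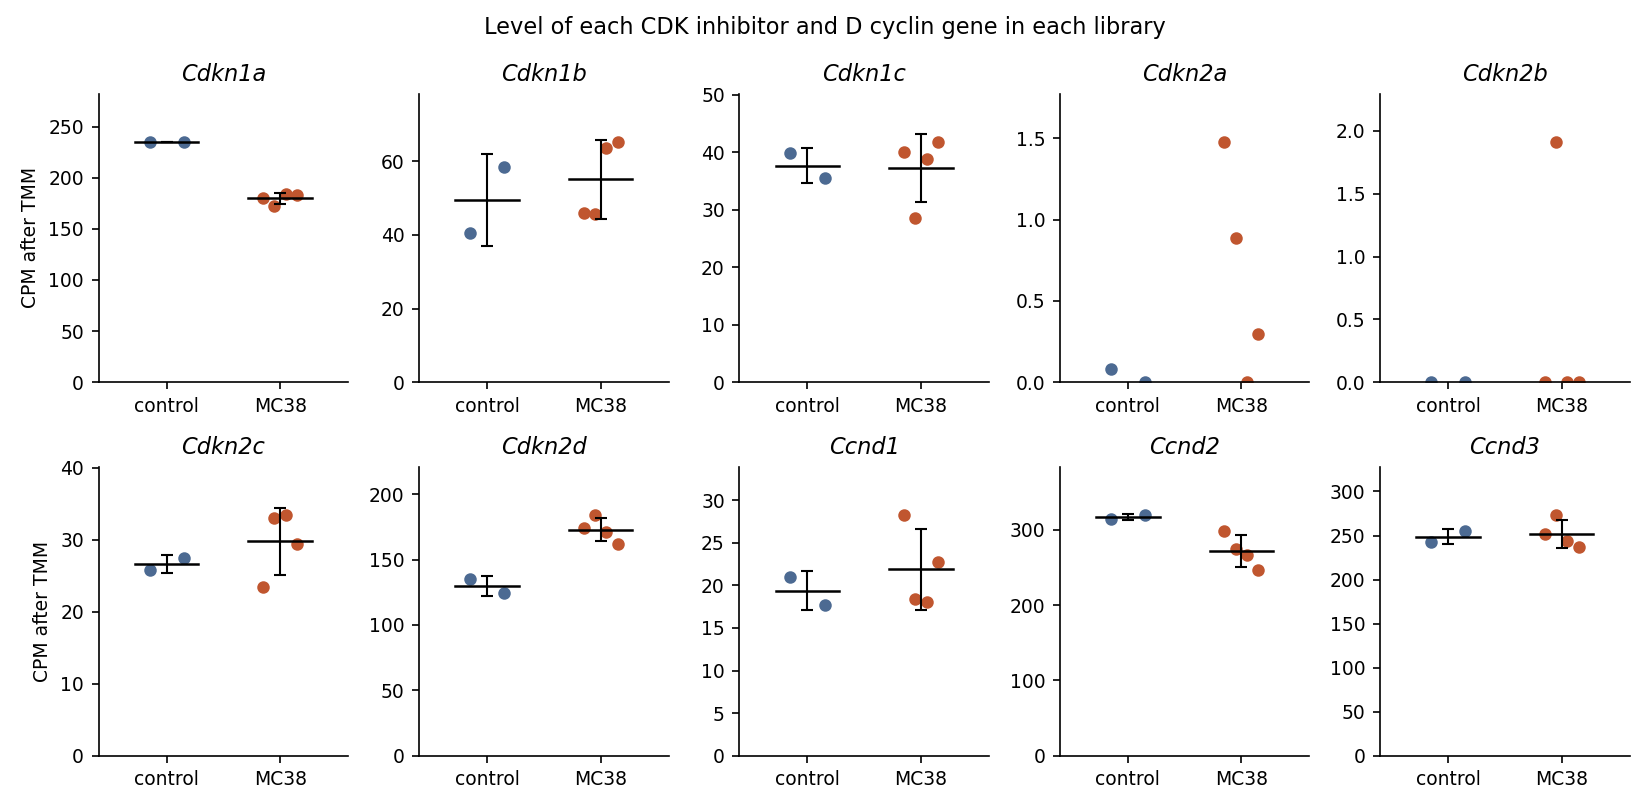
Level of each member in CPM after TMM (vertical axes, each from 0), with a point per library, a horizontal line at the group mean and a bar of 1 SD for control (n = 2) and MC38 (n = 4). No mean is drawn for Cdkn2a and Cdkn2b, whose counts were close to 0. Cdkn1a and Ccnd2 were lower and Cdkn2d higher in all 4 MC38 libraries than in both controls, and the other 7 members overlapped between groups.

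Among the Cip/Kip inhibitors, Cdkn1a had the smallest p. It encodes p21, the inhibitor that p53 induces after DNA damage and that stress and growth signals also raise. The gene (ENSMUSG00000023067) lies on the plus strand of chromosome 17, from 29090976 to 29100727 (GRCm38, the assembly of mm10). Cdkn1a was at 235.1 and 235.4 CPM in the controls and at 180.2, 172.6, 184.2 and 182.7 CPM in the MC38 libraries. The controls almost coincided, and the highest MC38 library was still well below them. The means were 235.2 ± 0.24 and 180.0 ± 5.13 CPM (SD, n = 2 and 4), and the log2 fold change was -0.39 (95% interval -0.62 to -0.15, SE 0.10, unadjusted p = 0.00450, edgeR adjusted p = 0.102). The SD of 2 libraries is a poor measure of spread, and sampling of counts alone gives an error of 2.01% at the smallest Cdkn1a count. Cdkn1a did not pass after adjustment over all genes, although its own interval does not include 0.

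The bases before the start of a gene are shown for Cdkn1a and Cdkn2d, the members of smallest p, and for Cdkn1b, which overlapped between groups. Sequences are from RefSeq (GRCm38.p6), 5′ to 3′ along the strand of the gene, and end at a transcription start except for Cdkn2d. Cdkn1a has 2 starts in the table, and the downstream one is shown. The 250 bases before the start were searched on both strands for short motifs. Capitals mark the GC box GGGCGG and the CCAAT box, or their reverse complements CCGCCC and ATTGG. For Cdkn2d only the part of this window that lies outside annotated exons is printed, 52 bases long.
Cdkn1a, chr17:29093519-29093768, plus strand: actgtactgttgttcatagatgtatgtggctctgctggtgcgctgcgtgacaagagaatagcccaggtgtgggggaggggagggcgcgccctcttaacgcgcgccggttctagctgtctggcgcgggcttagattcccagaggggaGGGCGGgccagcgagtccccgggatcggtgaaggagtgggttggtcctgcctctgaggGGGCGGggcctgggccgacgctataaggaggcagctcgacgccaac
Cdkn1b, chr6:134920151-134920400, plus strand: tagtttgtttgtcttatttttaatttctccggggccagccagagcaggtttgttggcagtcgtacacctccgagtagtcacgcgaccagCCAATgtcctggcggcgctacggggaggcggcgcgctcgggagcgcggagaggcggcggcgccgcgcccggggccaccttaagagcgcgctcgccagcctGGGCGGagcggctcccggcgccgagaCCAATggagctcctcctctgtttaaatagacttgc
Cdkn2d, chr9:21291408-21291459, minus strand: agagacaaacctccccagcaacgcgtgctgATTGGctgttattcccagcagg

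The RefSeq table held 11 such windows for 7 of the 10 members, Cdkn1c, Ccnd1 and Ccnd2 being the others. A GC box was present in 7 of the 11 windows, from 6 genes, and in 32.7% of the 32841 windows of all genes. These 7 windows were 59.6 to 78.4% G and C, and the median of all windows was 52.4%, so the 2 shares are not of like sequence. A CCAAT box was present in 3 windows, from Cdkn1b, Cdkn2d and Ccnd3, and in 33.9% of all windows. The interferon-gamma-activated site TTCNNNGAA was found in none of the 11 and in 7.02% of all windows. The forkhead motif GTAAACA was found in 1 window, of Ccnd3, and in 3.17% of all. The E2F motif TTTCCCGC was found in 1 window, of Cdkn2a (0.895% of all), and the cAMP response element TGACGTCA in 1, of Cdkn2b (1.55%). The other motifs searched were found in none. These matches describe letters in a short window and nothing more.

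Cdkn1b encodes p27, an inhibitor that accumulates in resting cells and is removed by the ubiquitin ligase subunit Skp2. It was at 40.6 and 58.4 CPM in the controls and at 46.1, 45.7, 63.5 and 65.3 CPM in the MC38 libraries. MC38 replicates 1 and 2 lay between the controls and replicates 3 and 4 above them. The log2 fold change was 0.16 (SE 0.23, 95% interval -0.35 to 0.67, edgeR adjusted p = 0.781), so a change of either sign is compatible with these libraries. Without control replicate 1 its sign turned, to -0.08. The SD among MC38 libraries was 19.4% of the mean, against a sampling error of 4.55% at the smallest count.

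Cdkn1c encodes p57, the imprinted inhibitor tied most closely to HSC quiescence. It was at 39.8 and 35.5 CPM in the controls and at 40.0, 28.6, 38.8 and 41.9 CPM in the MC38 libraries. The MC38 libraries lay on either side of the controls, with replicate 2 the lowest. The log2 fold change was -0.01 (SE 0.20, 95% interval -0.47 to 0.45, edgeR adjusted p = 0.983). It was 0.07 without control replicate 1 and 0.10 without MC38 replicate 2. Of the imprinted domain around Cdkn1c on chromosome 7, none of 9 tested genes was called, and the median log2 fold change was 0.02. An unadjusted p under 0.05 was found for 2 of the 9 and for 17.5% of all genes. The smallest p-values were those of Tssc4 (94.1 ± 5.83 and 126 ± 11.4 CPM, edgeR adjusted p = 0.148), Cars (0.215) and Cd81 (0.390). Phlda2, a neighbour expressed from the maternal copy like Cdkn1c, was at 18.6 ± 1.00 and 23.9 ± 2.05 CPM (edgeR adjusted p = 0.442).

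Among the Ink4 inhibitors, Cdkn2d had the smallest p and held most of the family's RNA. It encodes p19 of the Ink4 family, and its gene (ENSMUSG00000096472) lies on the minus strand of chromosome 9, from 21288410 to 21291407. Cdkn2d was at 135.4 and 124.6 CPM in the controls and at 174.4, 184.1, 171.2 and 162.1 CPM in the MC38 libraries. All 4 MC38 libraries lay above both controls. The means were 130.0 ± 7.63 and 172.9 ± 9.06 CPM (SD, n = 2 and 4), a 1.33-fold difference (log2 fold change 0.41, SE 0.12, 95% interval 0.15 to 0.67, edgeR adjusted p = 0.115, unadjusted p = 0.00608). Like Cdkn1a, Cdkn2d did not pass after adjustment over all genes.

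Markers of neutrophils moved with the same libraries. Of 12 markers tested, 7 rose and 1 fell (edgeR, adjusted p under 0.05; 1.04% and 0.569% of all genes), and none was at 0. Their summed level was 32329 to 33068 CPM in the controls and 56634 to 64990 CPM in MC38. The gene that fell was Mpo, the peroxidase of early granules, from 1595 to 1022 CPM (edgeR adjusted p = 0.0304). Elane (2086 and 1681 CPM) and Prtn3 (1185 and 875 CPM) were not called (edgeR adjusted p = 0.263 and 0.173). All 4 MC38 libraries were below both controls for Mpo, Elane and Prtn3 and above them for the other 9 markers (15.0% and 14.0% of all genes). The list thus did not move as 1. Ngp, a neutrophil granule protein, rose from 4091 to 9125 CPM (edgeR adjusted p = 0.000345). Their part in the Cdkn2d values was not tested.

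Cdkn2c encodes p18 of the Ink4 family, whose loss is known to favour HSC self-renewal in mice. It was at 25.8 and 27.5 CPM in the controls and at 23.4, 33.1, 33.4 and 29.4 CPM in the MC38 libraries. In MC38, 3 libraries lay above both controls and replicate 1 below both. The log2 fold change was 0.16 (SE 0.22, 95% interval -0.33 to 0.65, edgeR adjusted p = 0.757).

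Cdkn2a and Cdkn2b, which lie next to each other on chromosome 4, were at or near 0. Cdkn2a encodes p16 and, from another first exon, the p53-stabilising protein ARF, and counts per gene do not separate these products. It had 1 and 0 counts in the controls and 22, 13, 0 and 4 counts in the MC38 libraries. MC38 replicate 3, the deepest library, had none, so the groups overlapped. No ratio is given, because the MC38 libraries differ widely and the controls hold a single count. Cdkn2b, which encodes p15, had 0 counts in both controls, 28 in MC38 replicate 2 and 0 in the other 3 MC38 libraries. The limit that a count of 0 allows over both controls is 0.125 CPM, from 3 counts.

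The genes that keep the Ink4 locus silent were taken as a list of 15 Polycomb and T-box repressors. The T-box genes Tbx2 and Tbx3 were below the filter on low counts, so only Polycomb genes were tested. None of the 13 tested genes was called, and their median log2 fold change was -0.14. An unadjusted p under 0.05 was found for 2 of them and for 17.5% of all genes. Bmi1, the Polycomb protein that represses Cdkn2a in HSCs, was at 30.0 ± 1.39 CPM in control and at 28.2 ± 11.8 CPM in MC38 libraries (edgeR adjusted p = 0.931). The smallest p was that of Ring1, a Polycomb ubiquitin ligase, at 24.4 ± 0.58 and 15.2 ± 2.92 CPM (edgeR adjusted p = 0.219), followed by Phc1 (0.278) and Ezh2 (0.324), other Polycomb genes. In these 3 all MC38 libraries were below both controls, as in 15.0% of all genes.

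**Figure D2:**
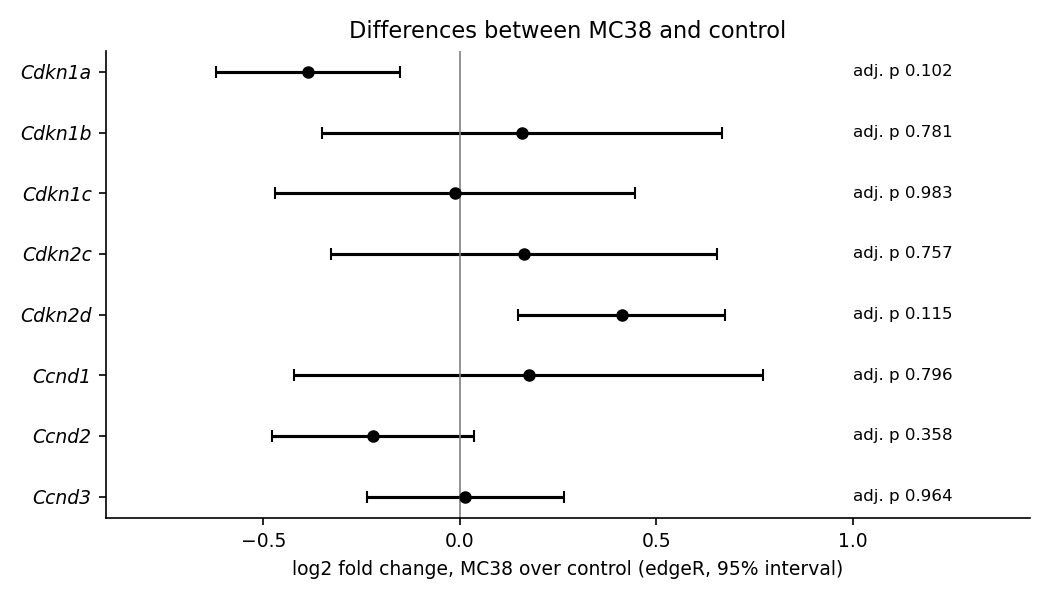
Log2 fold change of MC38 over control (horizontal axis) for the 8 members with at least 215 counts in every library, with 95% intervals from edgeR and the adjusted p over all genes. The intervals of Cdkn1a and Cdkn2d lie on opposite sides of 0, and those of the other 6 members include it.

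Of the D cyclins, Ccnd2 and Ccnd3 were abundant and Ccnd1 was not. Ccnd2 responds to cytokine signals in blood progenitors. It was at 314.1 and 319.7 CPM in the controls and at 299.0, 274.5, 266.9 and 246.9 CPM in the MC38 libraries. All 4 MC38 libraries lay below both controls, with replicate 1 close to them. The log2 fold change was -0.22 (SE 0.11, 95% interval -0.48 to 0.04, edgeR adjusted p = 0.358).

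Ccnd3 is the D cyclin known for expansion of early lymphoid and erythroid cells. It was at 243.0 and 254.6 CPM in the controls and at 251.5, 273.2, 243.8 and 236.5 CPM in the MC38 libraries. The groups overlapped throughout, and on the log2 scale they differed by 0.01 (SE 0.11, edgeR adjusted p = 0.964). The 95% interval of -0.24 to 0.27 bounds the difference more closely than for any other member tested except Cdkn1a. Ccnd3 shares exon bases with Bysl on the other strand, at 26.5 ± 8.27 and 22.1 ± 6.84 CPM. So do Ccnd1 with LTO1, Cdkn1a with AC167363.2, Cdkn1c with Gm44732, and Ccnd2 with Gm43126 and 9330179D12Rik. The strand setting of the counting is not given in the sources used here, and without strand, reads of such pairs cannot be told apart.

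Ccnd1, the D cyclin of many epithelial and tumour cells, was at 21.0 and 17.7 CPM in the controls and at 28.2, 18.4, 18.1 and 22.8 CPM in the MC38 libraries. The controls lay within the MC38 range but for the lower of them. The log2 fold change was 0.17 (SE 0.27, 95% interval -0.42 to 0.77, edgeR adjusted p = 0.796), and the SD among MC38 libraries, 21.7% of the mean, was the largest of the 8 members. LTO1, which shares exon bases with it, was at 20.8 ± 6.50 and 17.4 ± 2.28 CPM, close to Ccnd1 itself, so the Ccnd1 values are uncertain.

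Levels of different genes were compared per kb of annotated exon. Cdkn2d was the most abundant member in both groups, at 82.6 ± 4.85 CPM per kb in control and 109.9 ± 5.76 in MC38 libraries. Cdkn1a followed, at 66.2 ± 0.07 and 50.6 ± 1.44 CPM per kb. Each of these was separated from the next gene in every library. Ccnd2 (33.7 ± 0.42 and 28.9 ± 2.29 CPM per kb) stood above Ccnd3 (28.4 ± 0.94 and 28.6 ± 1.81 CPM per kb) in the controls, and their ranges overlapped in MC38. Cdkn1c came next, at 18.5 ± 1.502 and 18.3 ± 2.91 CPM per kb. Cdkn1b (10.9 ± 2.76 and 12.1 ± 2.36 CPM per kb) and Cdkn2c (9.92 ± 0.45 and 11.1 ± 1.74 CPM per kb) overlapped in both groups. In MC38, Cdkn1b also overlapped Cdkn1c. Ccnd1 was at 4.11 ± 0.49 and 4.65 ± 1.01 CPM per kb, above only Cdkn2a and Cdkn2b.

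The make-up of each family followed from these levels. In the Ink4 family Cdkn2d made up 89.2 ± 0.95% of the summed level per kb in control libraries and 90.2 ± 1.16% in MC38 (SD). The share overlapped between groups, although the summed Ink4 level went from 92.6 ± 4.45 to 121.9 ± 7.11 CPM per kb. In the Cip/Kip family the share of Cdkn1a was 69.3 ± 0.89% in control and 62.6 ± 3.14% in MC38 libraries. Every MC38 library (59.6 to 66.8%) was below both controls (68.7 and 69.9%). Among D cyclins the ratio of Ccnd2 to Ccnd3 per kb was 1.21 and 1.17 in the controls and 1.11, 0.937, 1.02 and 0.974 in the MC38 libraries. The ratio of Cdkn2d to Cdkn1a per kb was 1.30 and 1.195 in the controls and 2.18, 2.41, 2.10 and 2.00 in the MC38 libraries. These ratios restate the values of the single genes and were not tested.

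**Figure D3:**
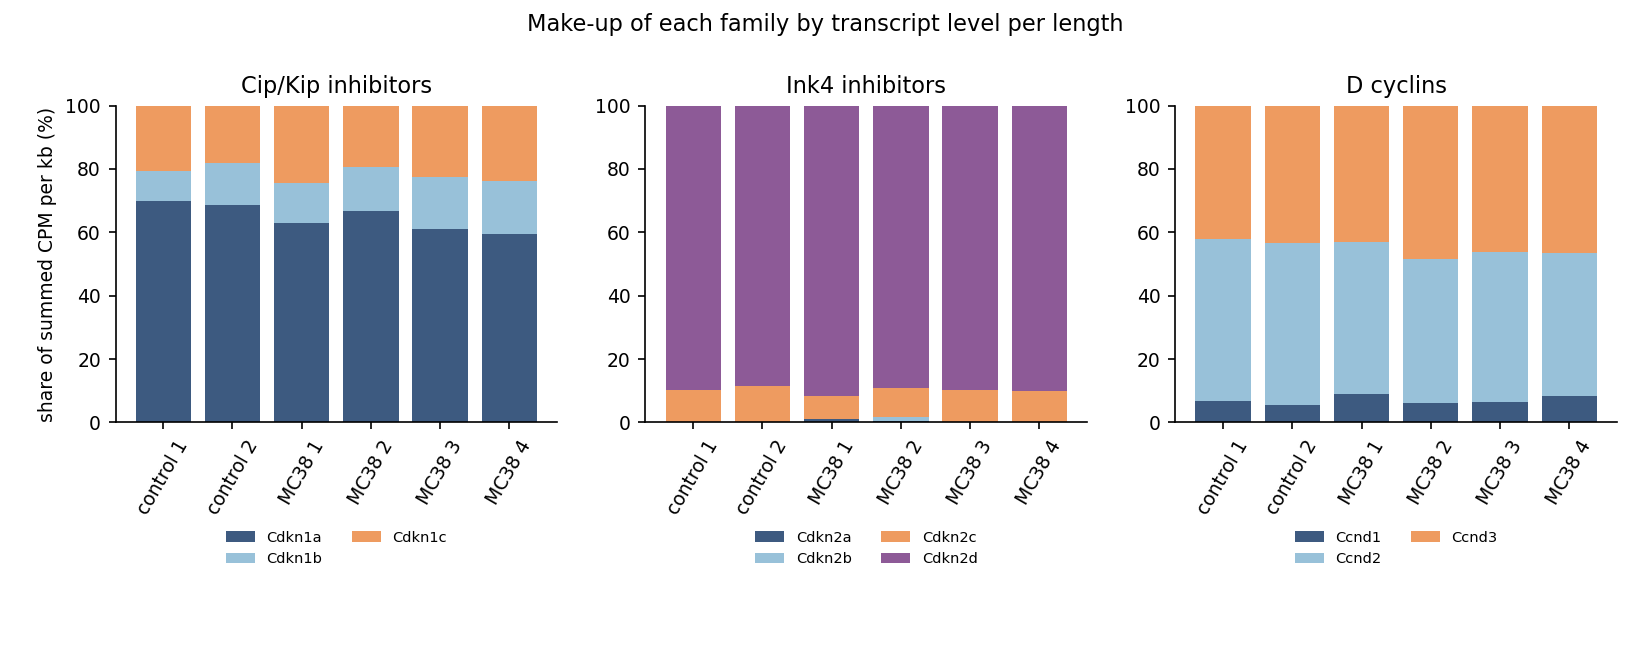
Share of each gene in the summed CPM per kb of its family (vertical axis, percent), with a bar per library. Cdkn1a took 59.6 to 66.8% of the Cip/Kip level in MC38 and 68.7 and 69.9% in control libraries, and Cdkn2d took about the same part of the Ink4 level in both groups.

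The values of Cdkn1a and Cdkn2d were followed under 14 other ways of fitting the data. Cdkn1a stayed lower, with a log2 fold change between -0.42 and -0.36, and Cdkn2d stayed higher, between 0.35 and 0.47. Each passed in 2 of the 14. With DESeq2, which called 7.18% of all genes, the adjusted p was 0.0171 for Cdkn1a and 0.0226 for Cdkn2d. With all 7 columns, where 10.6% of genes were called, it was 0.0136 and 0.0167, but that fit counts control column 3 as independent. The other 12 gave adjusted p-values up to 0.349 for Cdkn1a and 0.317 for Cdkn2d, both without control replicate 1. No other member passed in any alternative that tested it.

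**Figure D4:**
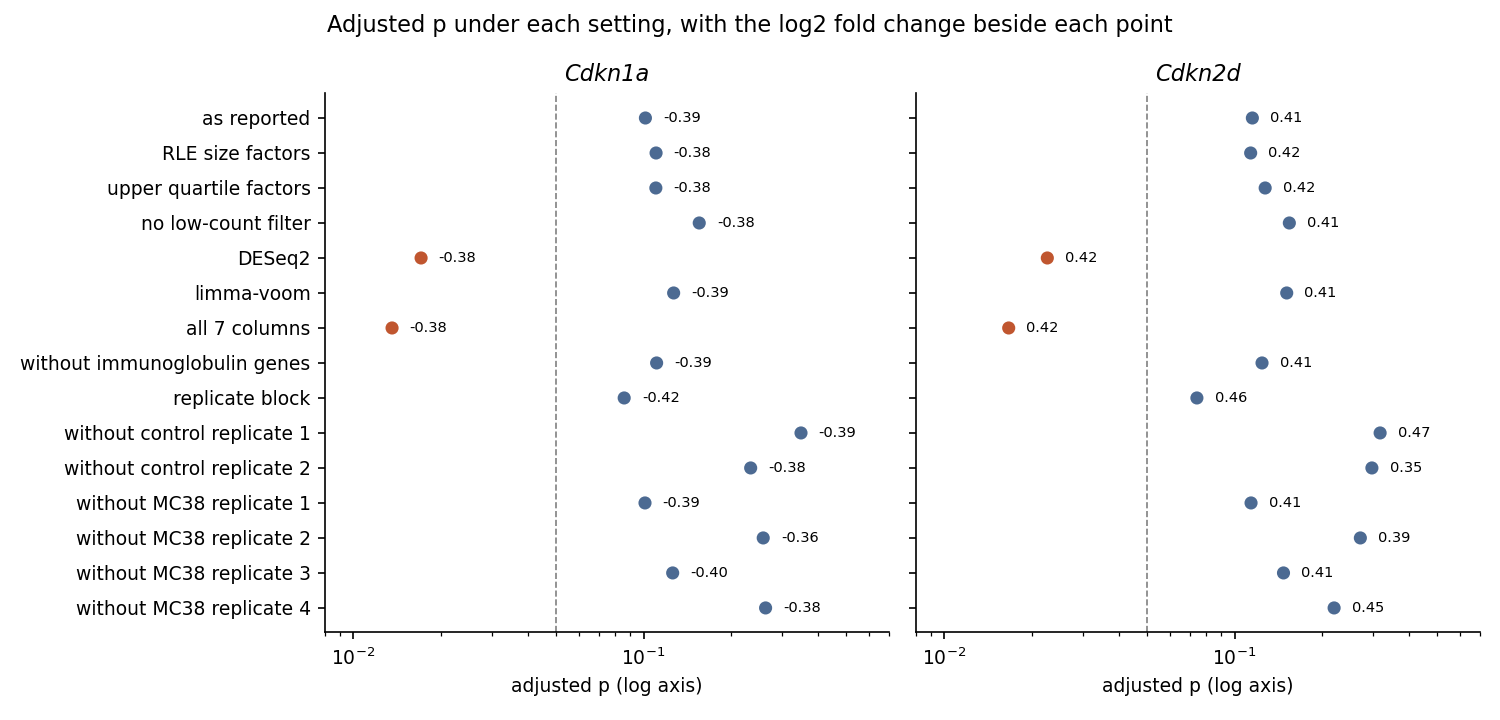
Adjusted p of Cdkn1a and Cdkn2d (horizontal log axes) in the reported fit and under 14 alternatives, with the log2 fold change beside each point and a dashed line at 0.05. The sizes vary little, and only DESeq2 and the 7-column fit lie left of the line.

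The 10 lists of genes around the members held 10 called genes of 156 tested, 1 higher and 9 lower, beside 1.61% of all genes. DESeq2 called 23 of the 156, 9 higher and 14 lower, and the 7-column fit 27, 10 higher and 17 lower. The 10 held none of the listed CDKs and their activators and none of the E and A cyclins. None of 12 CDKs and activators was called (5 with an unadjusted p under 0.05, median log2 fold change 0.105). For this count and the like counts of the lists below, the share over all genes tested was 17.5%. Cdk4 was at 331 ± 45.9 and 266 ± 17.5 CPM (edgeR adjusted p = 0.229). Cdk6, the close relative that blood cells depend on, was at 338 ± 23.0 and 429 ± 13.2 CPM (edgeR adjusted p = 0.144). For each the groups did not overlap, Cdk4 being lower and Cdk6 higher in all 4 MC38 libraries. Cdk2, the kinase of E and A cyclins, was at 78.2 ± 6.09 and 110 ± 21.4 CPM (edgeR adjusted p = 0.223). The chaperone pair that loads CDK4, Cdc37 and Hsp90ab1, had the smallest p-values of this list. Cdc37 was at 235 ± 26.9 and 163 ± 12.2 CPM (edgeR adjusted p = 0.0688). Hsp90ab1 was at 2428 ± 40.0 and 1768 ± 97.3 CPM (edgeR adjusted p = 0.0563). None of 3 tested E and A cyclins was called (1 with an unadjusted p under 0.05). Ccna2, the cyclin of S phase, was at 56.3 ± 13.7 and 36.4 ± 6.89 CPM (edgeR adjusted p = 0.188). Ccne1 and Ccne2, the cyclins of S phase entry, overlapped between groups (edgeR adjusted p = 0.894 and 0.573).

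Downstream, none of 18 pocket protein, E2F and DREAM complex genes was called (2 with an unadjusted p under 0.05), with a median log2 fold change of 0.05. Rb1, the retinoblastoma gene, was at 11.1 ± 1.98 and 17.5 ± 2.76 CPM (edgeR adjusted p = 0.272). Rbbp4, a histone-binding subunit of DREAM, was at 127 ± 16.7 and 90.2 ± 17.0 CPM (0.199), and Lin52, another subunit, at 17.9 ± 7.84 and 10.8 ± 2.46 CPM (0.327, edgeR for both). Of 17 genes for the turnover of inhibitors and D cyclins none was called (2 with an unadjusted p under 0.05; median -0.05). Ddb1, a subunit of the ligase that degrades p21 in S phase, was at 129 ± 9.28 and 101 ± 3.20 CPM (edgeR adjusted p = 0.172). Cks1b, the cofactor of Skp2 in p27 removal, was at 193 ± 20.4 and 152 ± 18.6 CPM (0.247), and Fbxw7, which targets cyclin E, at 18.9 ± 6.71 and 27.9 ± 3.39 CPM (0.314, edgeR for both).

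Upstream of Cdkn1a, none of 22 genes of p53 and its targets was called, and their median log2 fold change was 0.135. An unadjusted p under 0.05 was found for 6 of the 22 and for 17.5% of all genes. Trp53 itself was at 176 ± 21.7 and 171 ± 12.2 CPM (edgeR adjusted p = 0.911). The targets of smallest p went in both directions. Mdm2, the ligase of p53, was at 51.5 ± 9.83 and 83.1 ± 15.2 CPM (edgeR adjusted p = 0.127), Plk3 at 71.4 ± 14.3 and 124 ± 16.9 CPM (0.0612) and Gadd45a at 77.3 ± 4.45 and 115 ± 8.75 CPM (0.0704). In these 3 every MC38 library was above both controls, as in 14.0% of all genes. Plk3 passed in 6 of the 14 alternatives and Gadd45a in 2. Bax, the pro-death BCL2 relative, was at 136 ± 21.2 and 97.9 ± 5.42 CPM (edgeR adjusted p = 0.117), lower in all 4 MC38 libraries like Cdkn1a.

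The list of 22 other G0 and G1 regulators also held genes of splicing and transcription, such as Ccnl2, Ccnt2 and Cdk9. Of the 22, 1 rose, as did 1.04% of all genes. An unadjusted p under 0.05 was found for 4 of the 22, all higher, and for 17.5% of all genes in either direction. Ccnl2, a cyclin tied to splicing, was at 127 ± 6.78 CPM in control and at 202 ± 20.4 CPM in MC38 (edgeR adjusted p = 0.0405). The call was lost when a control was left out (edgeR adjusted p = 0.272 without replicate 1 and 0.132 without replicate 2). It was also lost without MC38 replicate 2 (0.0952) and replicate 4 (0.136), with limma-voom (0.0561) and without immunoglobulin genes (edgeR adjusted p = 0.0512). Myc, which represses Cdkn1a and raises Ccnd2 in many cells, was at 299 ± 13.7 and 405 ± 13.8 CPM (edgeR adjusted p = 0.0726). Ccnt2, a cyclin of the elongation kinase CDK9, was at 25.8 ± 4.51 and 45.2 ± 4.95 CPM (edgeR adjusted p = 0.0788).

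Of 20 markers of cycling cells tested, 3 fell, 0 rose and 17 did not pass, and 0.569% of all genes fell. The median log2 fold change was -0.39. In 10 of the 20 all 4 MC38 libraries were below both controls (15.0% of all genes), and in the other 10 the groups overlapped. An unadjusted p under 0.05 was found for 7 of the 20, all lower, and for 17.5% of all genes. Only 1 of the 20 had a positive log2 fold change, Aurkb, a mitotic kinase, at 20.5 and 29.9 CPM (edgeR adjusted p = 0.534). Ccnb1 and Ccnb2, the mitotic B cyclins, went from 40.9 ± 1.98 to 16.5 ± 3.31 CPM (edgeR adjusted p = 0.0269) and from 81.6 ± 3.43 to 39.5 ± 3.55 CPM (edgeR adjusted p = 0.0106). Top2a, the topoisomerase of S and G2 phase, went from 139 ± 3.27 to 90.5 ± 3.27 CPM (edgeR adjusted p = 0.0347). These 3 calls were lost without control replicate 1 (edgeR adjusted p = 0.200, 0.128 and 0.189) or control replicate 2 (0.114, 0.0745 and 0.138). Ccnb1 and Top2a also lost theirs without MC38 replicate 2 (edgeR adjusted p = 0.0909 and 0.125), and Top2a without MC38 replicate 4 (0.120). The summed level of the 20 was 1442 to 1511 CPM in control and 1107 to 1130 CPM in MC38 libraries.

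Cdkn1a is also induced early by stress and growth signals, as immediate early genes are. Of 20 such genes tested, 6 fell (0.569% of all genes did), 0 rose and 14 did not pass, with a median log2 fold change of -0.30. An unadjusted p under 0.05 was found for 11 of the 20, all lower, and for 17.5% of all genes. All 4 MC38 libraries were below both controls for 13 of the 20 and above for 0 (15.0% and 14.0% of all genes). Dusp1, a phosphatase of stress kinases, was at 2825 CPM in both groups, and Junb, an AP-1 subunit, at 2613 and 2641 CPM. Fosb, an AP-1 subunit, went from 1283 ± 69.4 to 550 ± 4.86 CPM (edgeR adjusted p = 0.000256), and Klf2, a factor of quiescent lymphocytes and stem cells, from 1730 ± 34.7 to 758 ± 79.5 CPM (edgeR adjusted p = 0.000936). Both passed in all 14 alternatives. The other 4 were Klf4 (409 ± 11.4 to 195 ± 28.8 CPM, edgeR adjusted p = 0.00546), Atf3 (0.00900), Klf6 (0.0148) and Jund (0.0403). Without control replicate 1 these 4 were lost (edgeR adjusted p = 0.112, 0.143, 0.147 and 0.171), and without control replicate 2 Klf4, Klf6 and Jund were (0.0739, 0.116 and 0.187). Without MC38 replicate 2 Klf6 and Jund were lost (edgeR adjusted p = 0.0710 and 0.111), and without MC38 replicate 4 Jund was (0.136). Jund also missed with upper quartile scaling (0.0564) and without immunoglobulin genes (edgeR adjusted p = 0.0512). The summed level of the 20 genes was 32370 to 32884 CPM in control and 25444 to 26512 CPM in MC38 libraries. Their part in the Cdkn1a values was not tested.

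**Figure D5:**
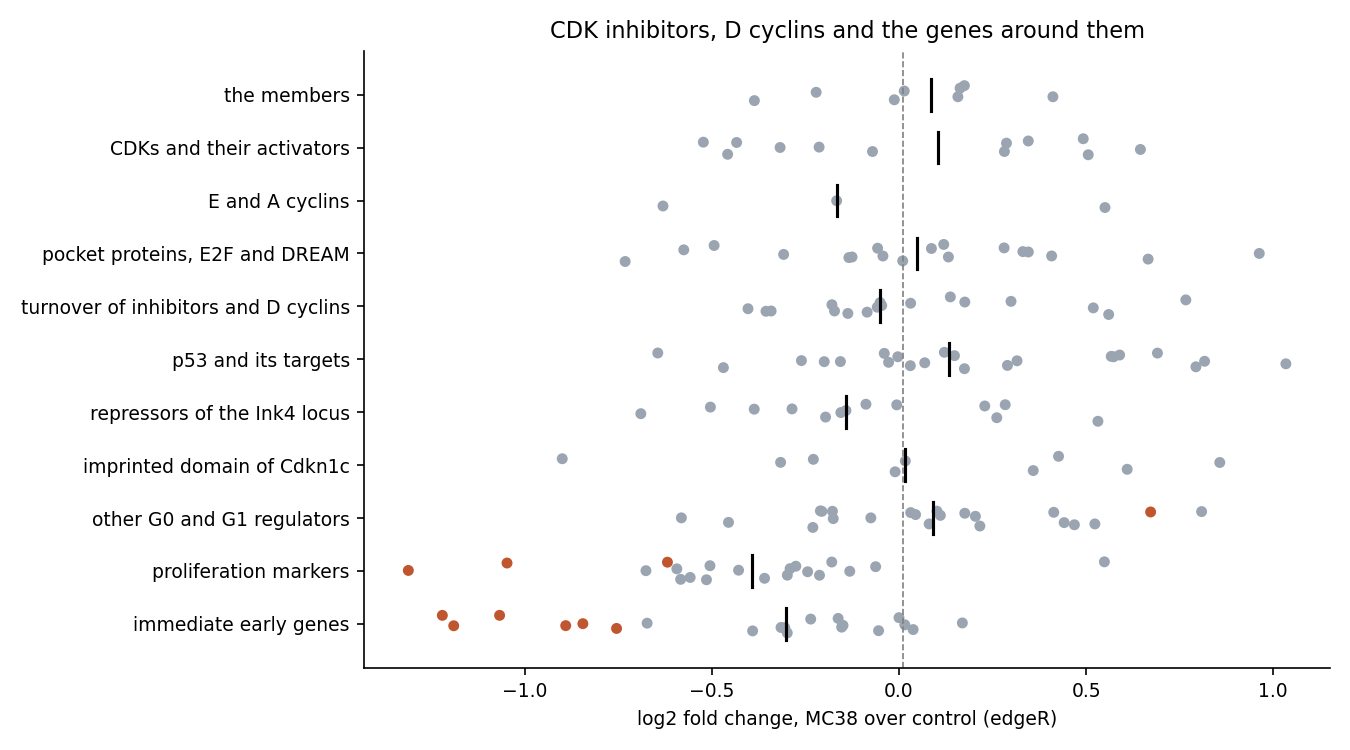
Log2 fold change of MC38 over control (horizontal axis) for the 8 members with ample counts and each tested gene of 10 pathway lists, with a point per gene, orange where the adjusted p was under 0.05. Black bars mark list medians and the dashed line the median of all genes (0.01). No member is called, and the called genes are 3 proliferation markers, 6 immediate early genes and Ccnl2.

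Other cell types were followed by markers, none of which was at 0 throughout. None of 15 HSC and progenitor markers was called (median log2 fold change -0.04). An unadjusted p under 0.05 was found for 2 of them and for 17.5% of all genes. All 4 MC38 libraries were above both controls for 5 of the 15 and below for 1 (14.0% and 15.0% of all genes). The smallest p-values were those of Ly6a, which was higher, and Gata2, which was lower (edgeR adjusted p = 0.0522 and 0.0726). Of 10 macrophage and dendritic cell markers 2 rose, C1qa and Siglech (1.04% of all genes rose), and 6 were higher with an unadjusted p under 0.05. C1qa was near 0 in the controls (0.084 and 0.248 CPM) and at 2.96 to 5.38 CPM in MC38. It passed the filter on low counts only through its MC38 libraries, as Cdkn2a did, so its call carries little weight. Siglech was at 29.4 and 68.8 CPM. The summed level of the 10 was 95.3 to 104 CPM in control and 169 to 192 CPM in MC38 libraries. None of the 10 T and NK cell, 10 B and plasma cell, 10 erythroid or 6 megakaryocyte markers was called. Their medians were 0.97, 0.39, -0.32 and 0.07. An unadjusted p under 0.05 was found for 5, 1, 2 and 3 of them, and for 17.5% of all genes. Among T and NK cell markers, Cd3e was at 2.504 and 2.86 CPM in control and MC38 libraries, with overlap. All 4 MC38 libraries were above both controls for 5 of these 10 markers, and for 14.0% of all genes. The 5 were Cd3g (4.48 and 11.4 CPM), Cd3d (7.74 and 13.9 CPM), Cd8b1 (6.32 and 11.5 CPM), Trac (1.17 and 3.58 CPM) and Klrb1c (6.47 and 20.6 CPM, edgeR adjusted p = 0.0541). Nkg7 was lower in all 4, at 420 and 365 CPM. Their part in the members' values was not tested.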

How the data were processed

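The authors deposited read counts per Ensembl gene, a column per library, for 3 control and 4 MC38 libraries. Per the labels' protocols, polyadenylated RNA of sorted cells was reverse transcribed by a low-input method and amplified with 12 PCR cycles, and no molecular identifiers are named. Trim Galore 0.5.0, HTSeq 0.10.0, STAR 2.6.1 and the mm10 build were named in the submitters' processing notes. Annotation release, strand setting and filters: not given in the sources used here. Symbols and exon lengths came from GENCODE M21 (GRCm38), which named 27728 of 28786 genes.

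The comparison used edgeR 4.0.16 under R 4.3.3 on 6 libraries, with TMM, filterByExpr, its quasi-likelihood test (robust) and Benjamini-Hochberg adjusted p-values over 14226 genes (threshold 0.05, two-sided). It was run on simulated data with 200 changed genes, whose changes were all larger than those of Cdkn1a and Cdkn2d. That run does not tell how often differences of their size are called. SE is the log2 fold change over the root of F. In 99.4% of 18542 genes, 3 times control column 3 reached the summed controls 1 and 2 (tolerance 1.5 counts). Alternatives were other scalings, no filter, DESeq2 1.42.0, limma-voom (limma 3.58.1), all 7 columns, no immunoglobulin genes, a replicate block and leaving out each library. Named genes are the members, and in each pathway list the called genes and the 3 of smallest p. Cdk4, Cdk2, Trp53, Mdm2, Bmi1, Phlda2, Bysl, LTO1, Aurkb, Dusp1, Junb and the named markers lie outside that rule and were picked with their values known. The members and lists were chosen with earlier results of these data known. Depth and the number of controls limit the precision, and intervals on counts cover counting error only.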

Additional observations from a re-analysis of the deposited data

Results flagged for a closer look

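Cdkn2b was at 1.91 CPM in MC38 replicate 2 and at 0 in the other 3 MC38 libraries, so that 1 sample stood far from the others. Bax was at 106.0 CPM in MC38 replicate 2, apart from the other MC38 libraries, whose gap to it was 0.865 of the range of the group. With 43 genes examined for such a sample and 2 found, the number is not above the 1 in 20 groups that chance marks. Cdkn2b also had 6 counts in control column 3, which enters no comparison, while control replicates 1 and 2 had none.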

How the results depend on the processing

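The count of members called was 0 in the reported fit and in 12 of 14 alternatives, and 2 with DESeq2 and with all 7 columns. Over all genes 229 were called, against 504 without the filter on low counts, 1021 with DESeq2, 1454 with all 7 columns, 131 without immunoglobulin genes, 459 with the replicate block and 60 to 442 when a library was left out (60 without control replicate 1, 83 without control replicate 2, and 442, 97 and 108 without MC38 replicates 1, 2 and 4). Over the pathway lists 10 genes were called, against 23 with DESeq2, 27 with all 7 columns and 2 to 15 when a library was left out (2 and 3 without control replicates 1 and 2, 5 without MC38 replicate 2). Whether libraries with the same replicate number belong together is not known here. Replicate 1 minus replicate 2 differences in the 2 groups had a correlation of 0.04 over genes. That is 1 difference per group, and MC38 replicates 3 and 4 have no control partner in the fit. It therefore cannot tell whether the libraries were made in batches. With the replicate block Cdkn1a had an adjusted p of 0.0858 and Cdkn2d of 0.0742, and no member passed. Signs turned for values near 0. Cdkn1b was at -0.0857 with the replicate block and at -0.0806 to 0.445 when a library was left out, Cdkn1c at -0.0912 to 0.1001, and Ccnd3 at -0.0228 to 0.0512. Ccne1 was at 0.0568 with limma-voom and at -0.784 to 0.939 when a library was left out. The cause was not tested. A fit with 1 control assumes that it varies like the MC38 libraries.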
